A study of Mus musculus with 6 samples.

Results

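The genes described here make NAD, convert it or use it up in cultured neonatal mouse heart cells. The 10 genes were taken by their place in the pathway: the nicotinamide riboside kinase genes Nmrk1 and Nmrk2, the synthesis genes Nampt, Naprt, Nmnat1 and Nmnat3, the NAD kinase gene Nadk, the nicotinamide methyltransferase gene Nnmt, and the sirtuin genes Sirt1 and Sirt3. All 10 had exactly 1 row with a single gene symbol, out of 22180 named genes. Membership follows the pathway, but Nmrk2, and with it the group, was chosen by its measured difference between the study's 2 conditions, so the differences of all members are given as a description, without a test.

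The cells came from hearts of 1-day-old C57BL/6 mice and were enriched for cardiomyocytes by letting other cells attach first. All 6 samples were kept in hypoxia for 12 h, with 2% oxygen, 5% CO2 and 93% N2. The hormone FGF21 was present at 1 µg/ml in 3 samples (FGF21) and absent in 3 (control), and each sample was hybridised to 1 Mouse Gene ST array. The series asked which genes FGF21 regulates in hypoxic cardiomyocytes, and hypoxia itself, shared by both groups, was not compared here. The titles call the samples biological replicates 1 to 3, but nothing says that they came from separate cultures or litters, so the errors and p-values cover sample-to-sample spread that may be technical.

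NAD carries electrons between metabolic reactions and is also consumed as a substrate. Cells rebuild it from nicotinamide through NAMPT, from nicotinamide riboside through the NMRK kinases and from nicotinic acid through NAPRT, and the NMNAT enzymes complete the first 2 of these routes by turning nicotinamide mononucleotide into NAD. NADK phosphorylates NAD to NADP, NNMT methylates nicotinamide and so removes it from recycling, and sirtuins split NAD when they deacylate proteins. NMRK1 is widely expressed, whereas NMRK2 is found mainly in muscle and heart and is known to increase in the stressed heart.

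Values are log2 signals as the authors deposited them. Array medians lay between 5.76 and 5.83, slightly lower in the FGF21 arrays (5.76 to 5.79) than in controls (5.81 to 5.83). Correlations between arrays ran from 0.993 to 0.997. The label of the cells was checked against 10 cardiomyocyte markers, none of which lay below its array's median on any array, while collagen and other fibroblast markers were also all above it. With limma, 0 of 22180 genes (0%) passed an adjusted p under 0.05, so no member did, which is not a test of the members. In other settings up to 23 genes passed, and whether members were among them is not given here. At an unadjusted p under 0.05 there were 2594 genes (11.7%), 56.3% of them higher with FGF21, or 79.9% after median centring of each array. The groups did not overlap for 17.1% of all genes.

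Both nicotinamide riboside kinase genes had higher values with FGF21. Nmrk2 (probe set 17243219) stood at 8.23, 8.13 and 8.19 in the FGF21 arrays and at 7.76, 7.58 and 7.72 in the controls. Every FGF21 array was above every control, and the lowest FGF21 value was 0.37 above the highest control value. The group means were 8.18 ± 0.0499 (SD, n = 3) and 7.69 ± 0.0960, a log2 difference of 0.50 ± 0.07 (SE), or 1.41-fold (95% interval 1.27 to 1.57). In the order of genes with higher values under FGF21, Nmrk2 was number 39 of 10591 by size.

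Nmrk1 (probe set 17358020), the paralogue found in most tissues, stood at 6.02, 6.11 and 6.29 with FGF21 and at 5.63, 5.82 and 5.72 without. These groups did not overlap either, with a gap of 0.20. The means were 6.14 ± 0.136 (SD, n = 3) and 5.72 ± 0.0954, a log2 difference of 0.42 ± 0.08 (SE), or 1.34-fold (95% interval 1.17 to 1.52), which was number 76 of 10591 by size. Nmrk1 was dim: it lay below the array's median row on 2 of 6 arrays, both controls, and the robust multi-array average compresses differences of dim rows. The log2 difference of Nmrk2 exceeded that of Nmrk1 by 0.08, with a 95% interval from -0.31 to 0.47, so these arrays do not order the kinases by the size of their difference.

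**Figure D1:**
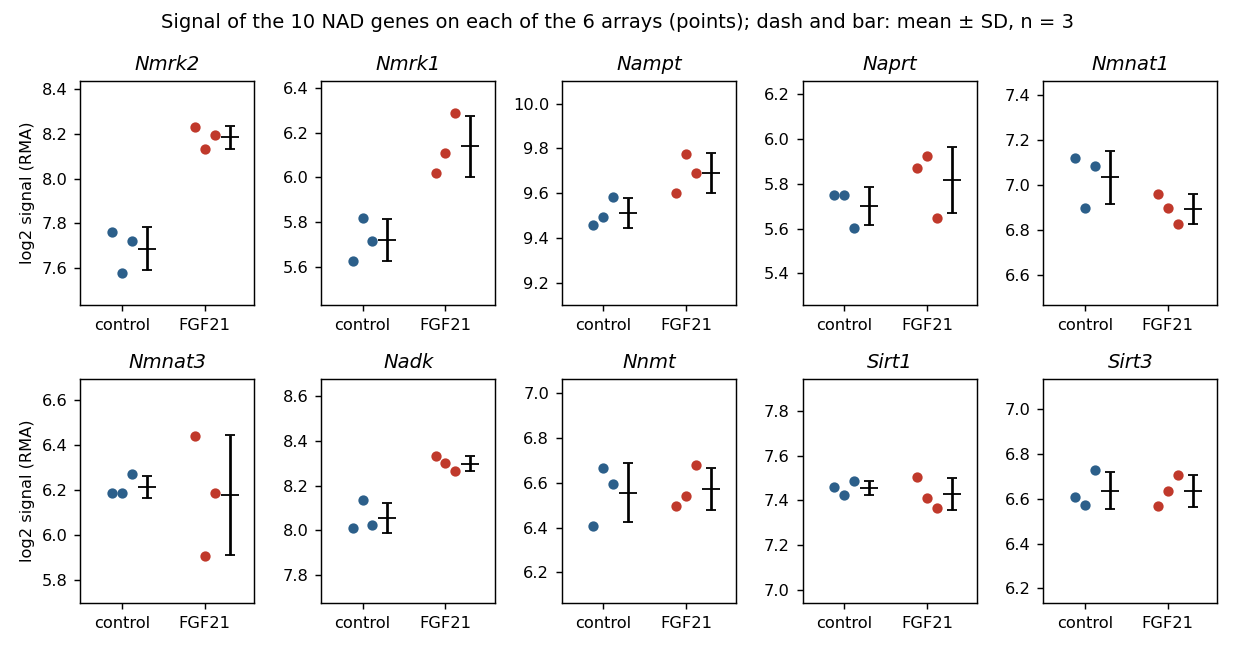
Log2 signal (vertical axis, each panel spanning the same height) of each NAD gene in the 3 control arrays (blue) and the 3 FGF21 arrays (red), with the mean ± SD as a dash and bar. The groups are apart for Nmrk2, Nmrk1, Nampt and Nadk and overlap for the other 6 genes.

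As both kinase genes had higher values, the 250 bases before their start sites are shown, to let a reader compare the upstream sequence of the muscle gene with that of the widely expressed gene. They are from the RefSeq promoter table of build GRCm38.p6, are written 5′ to 3′ on the gene's strand and stop at the start site. Capitals mark matches, on either strand, to any of 5 motifs. The TATA box was searched as TATAAA and the CCAAT box by the letters in its name. The E-box was searched as CANNTG. The half-site of nuclear receptors was searched as AGGTCA. The core of the hypoxia response element was searched as ACGTG, which can overlap an E-box. The Nmrk2 window lies at chr10:81202038-81202287 on the minus strand and the Nmrk1 window at chr19:18631766-18632015 on the plus strand.
Nmrk2: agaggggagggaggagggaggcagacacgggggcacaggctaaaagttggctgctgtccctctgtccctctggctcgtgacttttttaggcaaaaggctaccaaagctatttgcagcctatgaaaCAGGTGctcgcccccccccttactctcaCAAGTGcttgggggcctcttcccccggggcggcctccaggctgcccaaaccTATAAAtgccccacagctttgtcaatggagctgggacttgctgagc
Nmrk1: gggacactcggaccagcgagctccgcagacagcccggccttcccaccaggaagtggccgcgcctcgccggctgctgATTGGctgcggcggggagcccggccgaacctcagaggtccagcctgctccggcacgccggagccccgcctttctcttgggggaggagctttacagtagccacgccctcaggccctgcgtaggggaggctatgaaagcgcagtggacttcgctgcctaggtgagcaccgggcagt
The Nmrk2 window held TATAAA, beginning 46 bases before the start site, and 2 E-boxes, CAGGTG and CAAGTG, 125 and 97 bases before it. TATAAA was found in 12.4% of the 32851 promoter windows of this length, and CANNTG in 66.2%. The Nmrk1 window held neither, but a CCAAT box on the opposite strand, 174 bases before the start site, a motif that 33.8% of windows hold. G and C made up 58.8% of the Nmrk2 window and 69.2% of the Nmrk1 window, against a median of 52.4% over all windows. Neither window held AGGTCA or ACGTG, which occur in 14.0% and 16.6% of windows. Of the members, 8 of 10 matched the table, with 11 windows. TATAAA was in a window of 1 of these 8 genes, CCAAT of 4, CANNTG of 7, AGGTCA of 1 and ACGTG of 3. Nmnat1, Nadk and Sirt3 had 2 windows each, so these counts per gene cannot be set against the shares per window. These are matches of letters, and binding was not measured.

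Of the other synthesis genes, Nampt, the rate-limiting enzyme of the nicotinamide route, had the largest difference. Nampt (probe set 17274875) stood at 9.60, 9.78 and 9.69 with FGF21 and at 9.46, 9.49 and 9.59 without. The groups were apart by only 0.01, less than the SD within either group (0.0890 with FGF21 and 0.0659 without). The log2 difference was 0.18 ± 0.07 (SE), or 1.13-fold (95% interval 1.01 to 1.26). Naprt, which starts the nicotinic acid route, stood at 5.87, 5.92 and 5.65 with FGF21 and at 5.75, 5.75 and 5.60 without, so that the groups overlapped, with a difference of 0.11 ± 0.09. Naprt was dim, below the array's median row on 4 of 6 arrays. Its difference fell between 0.0587 and 0.197 when single arrays were left out, the extremes being those without FGF21 replicate 2 and FGF21 replicate 3, and was 0.0646 without control replicate 3.

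The adenylyltransferase genes, whose products turn nicotinamide mononucleotide from both NAMPT and the NMRK kinases into NAD, did not share the kinases' direction. Nmnat1, the nuclear enzyme, stood at 6.96, 6.90 and 6.83 with FGF21 and at 7.12, 6.90 and 7.08 without. Its groups overlapped, and the log2 difference was -0.14 ± 0.08 (SE, 95% interval -0.31 to 0.03). Nmnat3, the mitochondrial enzyme, stood at 6.44, 5.91 and 6.19 with FGF21 and at 6.19, 6.19 and 6.27 without. It varied more among FGF21 arrays (SD 0.267) than among controls (SD 0.0489), a pair of spreads that was not tested, and its difference of -0.04 ± 0.12 became 0.0987 without FGF21 replicate 2 and -0.169 without FGF21 replicate 1.

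Among the 4 genes that convert or use NAD and its products, Nadk alone had groups that did not overlap, against 17.1% of all genes. Nadk (probe set 17422587), the cytosolic kinase that makes NADP, stood at 8.33, 8.30 and 8.26 with FGF21 and at 8.01, 8.13 and 8.02 without, a gap of 0.13. The log2 difference was 0.24 ± 0.06 (SE), or 1.18-fold (95% interval 1.07 to 1.31), and 0.176 with quantile normalization applied again. Nnmt, the nicotinamide methyltransferase, stood at 6.50, 6.54 and 6.68 with FGF21 and at 6.41, 6.67 and 6.59 without. Its difference of 0.02 ± 0.08 was well within the spread of either group, and its 95% interval ran from -0.17 to 0.20.

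The sirtuin members had differences near 0. Sirt1, a nuclear deacetylase, stood at 7.51, 7.41 and 7.37 with FGF21 and at 7.46, 7.42 and 7.49 without, a difference of -0.03 ± 0.06 (SE, 95% interval -0.17 to 0.12). Sirt3, the main deacetylase of mitochondria, stood at 6.57, 6.63 and 6.71 with FGF21 and at 6.61, 6.57 and 6.73 without, a difference of -0.00 ± 0.07 (95% interval -0.16 to 0.16). Median centring of each array turned the sign of both, to 0.00751 for Sirt1 and 0.0346 for Sirt3. The intervals leave room for folds of 0.887 to 1.08 for Sirt1 and 0.896 to 1.11 for Sirt3.

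Over the 10 members, 6 differences were above 0, against 47.8% of all genes, and 4 below, with a median of 0.06. The groups did not overlap for 4 of 10, all higher with FGF21, against 17.1% of all genes, of which 8.99% were higher. Since the difference of Nmrk2 was known when the group was proposed, nothing is read from that count. Without Nmrk2, the median of the other 9 members was 0.02, against -0.01 over all genes, and with single arrays left out it lay between -0.0165 and 0.071, so that its sign is not settled.

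The log2 difference of Nmrk2 was set against that of each other member within the same arrays, as a description, since the choice of Nmrk2 used this contrast. It was larger by 0.64 (95% interval 0.52 to 0.76) than that of Nmnat1, by 0.53 (0.37 to 0.68) than that of Sirt1 and by 0.50 (0.28 to 0.71) than that of Sirt3. It was larger by 0.32 (0.03 to 0.61) than that of Nampt and by 0.26 (-0.02 to 0.53) than that of Nadk.

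**Figure D2:**
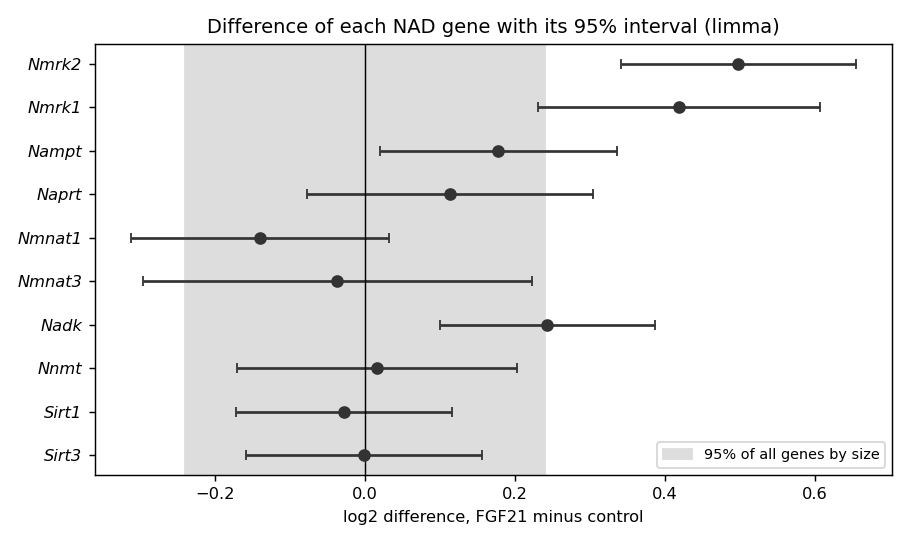
Log2 difference of each NAD gene, FGF21 minus control (horizontal axis), with its 95% interval from limma, and in grey the range that holds 95% of all 22180 genes by size. Nmrk2 at 0.50 and Nmrk1 at 0.42 lie beyond the grey range, Nadk at its edge and the other 7 within it.

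Related genes were described by lists of other NAD routes, of NAD-consuming enzymes and of genes tied to NMRK2. Of 67 genes listed, 65 were measured, 34 of them higher and 31 lower with FGF21, with a median difference of 0.01. At an unadjusted p under 0.05 in limma there were 3 of 65, against 11.7% of all genes, and 0 passed after adjustment over all genes (smallest adjusted p of 0.339). That count of 3 became 6 when FGF21 replicate 1 was left out, 1 when FGF21 replicate 3 or control replicate 3 was, and 5 with median centring. None of the 65 differences reached the size of Nmrk1 or Nmrk2, as the largest were 0.20 and -0.25. Such sizes are rare in any list. Over all genes, 0.252% had a difference at least the size of that of Nmrk2, and Nmrk1 was number 76 of 10591 higher genes. Since Nmrk2 was chosen by this contrast, nothing is read from this comparison.

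The remaining routes into NAD had small differences. Among 9 further genes of salvage and uptake, 0 had an unadjusted p under 0.05 in limma. The nucleotidase gene Nt5c2 had a difference of 0.16 ± 0.08 (SE), or 0.255 without control replicate 1 and 0.105 with quantile normalization applied again, and Slc29a1, an equilibrative nucleoside transporter gene, one of -0.11 ± 0.07, which was -0.0544 as the mean of its 2 rows. Of 9 genes listed for the tryptophan route to NAD, 7 were lower, with a median of -0.04. Among these 7 was Acmsd, at -0.04, whose enzyme diverts the route away from NAD. The median was -0.00813 with quantile normalization applied again and -0.00686 with median centring, each with 4 of 9 higher. By their mean signal, 4 of the 9 genes lay below the lowest array median. With dim genes left out, 5 remained, of which 1 was higher, with a median of -0.126. Ido1, the indoleamine dioxygenase that opens this route, was the 1 gene of the 9 with an unadjusted p under 0.05 in limma, against 11.7% of all genes. It stood at 6.10, 6.01 and 5.99 with FGF21 and 6.42, 6.10 and 6.22 without, with a difference of -0.21 ± 0.09 (limma adjusted p of 0.380), or -0.127 without control replicate 1. The groups of Ido1 were apart, but only narrowly, and groups were apart for 17.1% of all genes. Its relative Ido2 had a difference of -0.14 ± 0.09, or -0.0618 without control replicate 2 and -0.226 without control replicate 1.

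Genes that hold or turn over the cofactor pool also differed little. Of 5 genes for NADP, mitochondrial NAD and NAD breakdown, the largest differences were 0.08 ± 0.10 (SE) for the hydrolase gene Nudt12 and 0.08 ± 0.07 for Slc25a51, the mitochondrial NAD carrier. The mitochondrial NAD kinase gene Nadk2 had a difference of -0.05 ± 0.07, so the positive difference of Nadk was not seen in its mitochondrial counterpart, and the difference between these genes was not tested. Nudt13 had a difference of -0.07 ± 0.07.

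Other NAD consumers had small differences. Of 5 other sirtuin genes, 4 were higher, with a median of 0.05, led by the nucleolar Sirt7 at 0.15 ± 0.08 (SE), or 0.0836 without control replicate 3, and followed in order of p by Sirt2 at 0.05 ± 0.07. Of 14 measured ADP-ribose transferase genes, 10 were higher, with a median of 0.04, but with quantile normalization applied again 6 were, with a median of -0.00639. Parp2, a DNA damage sensor, had a difference of 0.20 ± 0.10, or 0.113 without FGF21 replicate 2 and 0.305 without FGF21 replicate 1, and Parp1, the main polymerase of this family, one of 0.10 ± 0.07, or 0.0343 with quantile normalization applied again. The glycohydrolase genes Bst1 and Sarm1 had differences of 0.06 ± 0.07 and -0.04 ± 0.06. None of these had an unadjusted p under 0.05 in limma. For nicotinamide clearance, Cyp2e1 had a difference of -0.16 ± 0.09, with a signal below the array's median row on 6 of 6 arrays, and the aldehyde oxidase gene Aox1 one of -0.01 ± 0.09. The differences of Cyp2e1, Bst1, Sarm1, Sirt2, Aox1, Parp1, Slc29a1, Slc25a51 and Nudt13 also moved by over 1.5 times with single arrays left out. That of Aox1 then ran from -0.0922 to 0.0572, so its direction is not settled. With median centring, that of Sarm1 was 8.5e-05.

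**Figure D3:**
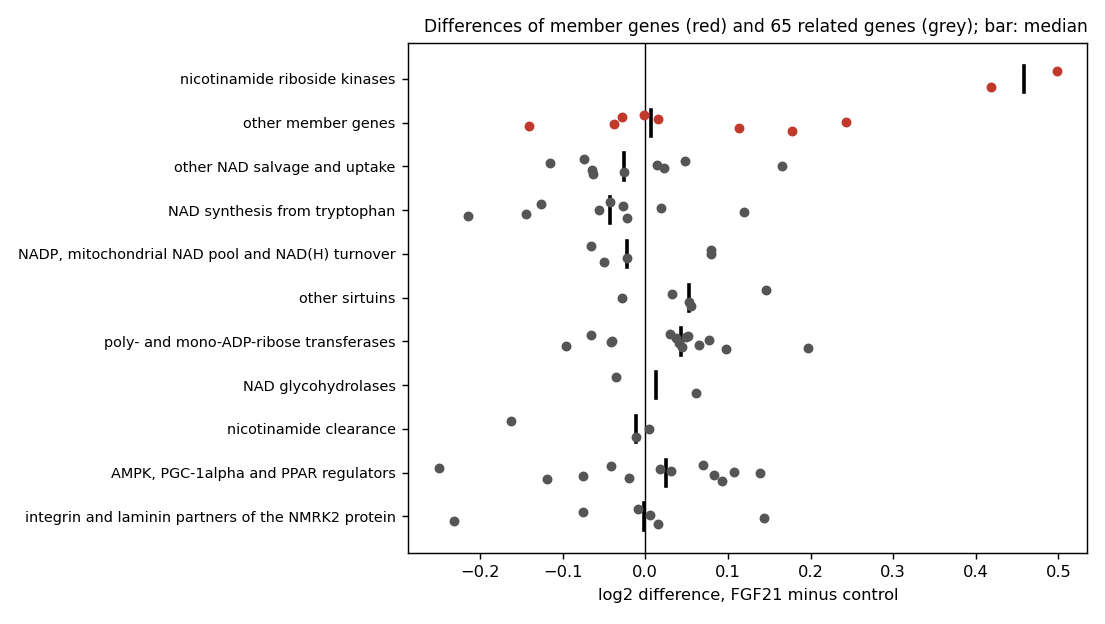
Log2 differences, FGF21 minus control (horizontal axis), of the members in red and of 65 related genes in grey, 1 line per list, with the list's median as a black bar. Both kinases lie to the right of every other gene drawn, and the medians of the related lists lie between -0.04 and 0.05. Nmrk2 was chosen by its difference in this contrast, so its place is not a result.

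The energy-sensing kinase AMPK and the nuclear receptor PPAR-alpha have been described as regulators of Nmrk2 in heart. Of 12 genes for AMPK subunits, its upstream kinase, PGC-1 coactivators and their nuclear receptors, 7 were higher and 5 lower, with a median of 0.02. This direction was not stable: 5 of 12 were higher with quantile normalization applied again (median -0.0209) and when FGF21 replicate 3 was left out (-0.0173), and the median was -0.0193 without control replicate 2. Ppara, the gene for PPAR-alpha, stood at 5.92, 6.33 and 5.96 with FGF21 and at 6.27, 6.35 and 6.35 without. FGF21 replicate 2 lay within the control range, and the other 2 FGF21 arrays lay below it. The difference was -0.25 ± 0.10 (SE), with an unadjusted p of 0.0361 and an adjusted p of 0.392 in limma, and it was -0.379 without FGF21 replicate 2. Prkag2, a regulatory subunit gene of AMPK, had a difference of 0.14 ± 0.06, and Ppargc1a, the gene for PGC-1-alpha, one of 0.03 ± 0.09.

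NMRK2 was also described as a muscle protein that binds integrin. The beta subunit gene Itgb1 had a difference of 0.02 ± 0.06 (SE). Itga7, the main laminin-binding alpha subunit of muscle, stood at 7.82, 7.74 and 7.82 with FGF21 and at 8.15, 7.86 and 8.08 without. Every FGF21 array was below every control, the 1 gene of the 6 listed with groups apart, against 17.1% of all genes. The difference was -0.23 ± 0.08, with an unadjusted p of 0.0185 and an adjusted p of 0.339 in limma. Itga5, the fibronectin-binding alpha subunit, had a difference of 0.14 ± 0.09, or 0.0642 without control replicate 2, 0.0788 without FGF21 replicate 2 and 0.084 with quantile normalization applied again, and the laminin genes Lama2, Lamb1 and Lamc1 differences from -0.07 to 0.01.

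Over the 6 arrays, the 5 genes whose centred values lay nearest to those of Nmrk2 were Rai14, Slc28a2, Cyb5b, Trim8 and Scd1, at root-mean-square distances of 0.0824 to 0.0896 log2 units. Their log2 differences were 0.41, 0.59, 0.40, 0.36 and 0.54. Slc28a2 encodes a purine nucleoside transporter and Scd1 the stearoyl-CoA desaturase. Slc28a2, with the largest of these differences, was dim, below the array's median row on 6 of 6 arrays. Nearness over 6 arrays in 2 groups rests mainly on the group difference.

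Of the marker lists for other heart cells, the endothelial list had the largest median difference in size. The leukocyte sums overlapped between the groups, as did those of smooth muscle and pericytes. All 8 endothelial markers were above the array medians, and 7 of 8 had lower values in the FGF21 arrays. The median of the 8 differences was -0.32, or -0.228 without FGF21 replicate 1. Their summed log2 level was 57.9 to 59.8 in the FGF21 arrays and 60.7 to 62.4 in the controls, which do not overlap. Cdh5 and Pecam1 had differences of -0.44 and -0.32, but Tek and Tie1 had differences of 0.004 and -0.04, so the list was not uniform. In whole cultures, fewer cells of a type and less RNA per cell cannot be told apart. The 4 epicardial markers summed to 31.2 to 32.0 with FGF21 and 30.9 to 31.2 without, ranges that were just apart, with 3 of 4 markers higher. Of the 6 leukocyte markers 4 were higher, with sums of 47.7 to 48.6 and 47.6 to 48.0, and of the 5 smooth muscle and pericyte markers 2 were higher, with sums of 43.1 to 43.6 and 43.6 to 44.2. Without FGF21 replicate 2, 3 of 6 leukocyte markers were higher, and with median centring 3 of 5 smooth muscle and pericyte markers were. Overlapping sums hid single markers that went opposite ways. Groups were apart for Rgs5 (-0.49) and Myh11 (0.16) among smooth muscle and pericyte markers. They were also apart for Cd68 (-0.20) and Ptprc (0.20) among leukocyte markers, against 17.1% of all genes. The part of these cell types in the differences of Nmrk2, Nmrk1 and Nadk was not tested.

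The muscle marker lists had small median differences. Single differences ran from -0.22 (Ttn) to 0.10 among cardiomyocyte markers and from -0.24 (Myog) to 0.06 among skeletal muscle markers. Of 10 cardiomyocyte markers, 2 were higher and 8 lower in the FGF21 arrays. With median centring 5 were higher, and without control replicate 1, whose sum was the highest, 4 were. Their median difference was -0.04, -0.000101 with median centring and -0.00611 without control replicate 1, and their summed log2 level was 110.19 to 110.44 with FGF21 and 110.18 to 112.15 without. With the mean of these markers subtracted on each array, the difference was 0.552 ± 0.058 (SE) for Nmrk2 and 0.473 ± 0.144 for Nmrk1. Of 8 skeletal muscle markers, 2 were higher, or 5 without control replicate 2, which turned their median from -0.05 to 0.0252. Their sums were 50.7 to 51.6 and 51.1 to 52.2, and Mylpf lay below its array's median on 6 of 6 arrays and Myf5 on 5. The 8 fibroblast markers, 4 of them higher, summed to 85.6 to 86.4 and 85.9 to 86.3, so the ranges of the groups overlapped.

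**Figure D4:**
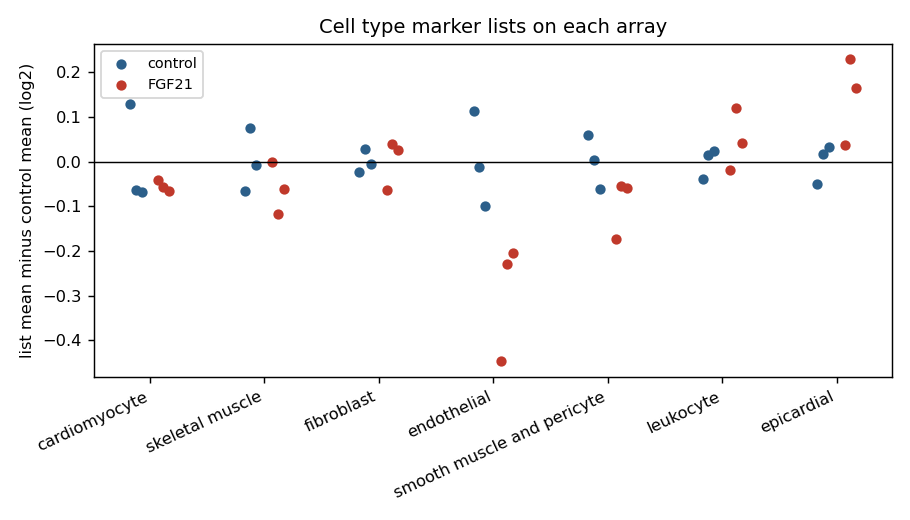
Mean log2 level of each marker list on each array, minus the list's mean over the controls (vertical axis), for control (blue) and FGF21 (red) arrays. The endothelial points of the FGF21 arrays lie below all control points, and the cardiomyocyte and fibroblast points overlap.

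The differences of the kinase genes were recomputed under other settings. Nmrk2 ran from 0.443, with quantile normalization applied again, to 0.552, with cardiomyocyte markers subtracted. Nmrk1 ran from 0.345, without FGF21 replicate 3, to 0.478, without FGF21 replicate 1. The order of the kinases was not stable: Nmrk1 had the larger difference with quantile normalization applied again (0.450 against 0.443), without control replicate 2 (0.467 against 0.444) and without FGF21 replicate 1 (0.478 against 0.475).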

How the data were processed

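The authors deposited 1 table of log2 values from the 6 arrays, per the submitters' processing notes with R 3.2.2, affy and the robust multi-array average (RMA). RMA gives the arrays like distributions, so a change of all genes at once would not show. For the chip definition and genome build, the sources used here give nothing. Of 41345 rows, 23521 had 1 gene symbol in the platform annotation, 1814 several and 16010 none in the table used. For genes with several rows the brightest was taken, which left 22180 genes.

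FGF21 minus control was fitted in R 4.3.3 by lmFit and eBayes of limma 3.58.1 (no covariate, two-sided), with Benjamini-Hochberg adjustment over all genes and a threshold of 0.05. Intervals are at 95%. Differences between genes within arrays used a linear model with their own residual spread. The fit was tested on simulated data with independent noise, where its mean estimates lay close to the changes put in. That check does not show how many such changes would pass the threshold in the real arrays. The number of arrays limits the precision.

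The members, lists and alternatives were chosen with earlier results of these data known. Named were all members, the 2 genes of smallest p of each related list, the 5 genes nearest to Nmrk2 leaving out predicted genes, and Cdh5 and Pecam1. Nudt12, Nadk2, Nmnat2, Acmsd, Ppargc1a, Itgb1, the laminin genes, Mylpf, Myf5, Myog, Ttn, Tek and Tie1 were named after their values were seen. So were Rgs5, Myh11, Cd68 and Ptprc. Of the listed markers, 4 erythroid genes had no row with a single symbol, and neither had Parp10 and Cd38 of the related lists. Alternatives were a replicate block, each array left out, renormalization, median centring, the mean of a gene's rows, a filter on dim genes, another prior and all rows. Subtracting cardiomyocyte markers, and applying the alternatives to related genes and endothelial markers, was added after seeing the data.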

Additional observations from a re-analysis of the deposited data

How the results depend on the processing

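The differences of Nmrk2, Nmrk1, Nampt, Naprt and Nadk stayed above 0, and that of Nmnat1 below 0, in every setting run for them. The differences of Nmnat3, Nnmt, Sirt1 and Sirt3 changed sign in at least 1 setting, and their direction is not settled by these arrays. The count of genes at a limma adjusted p under 0.05 was 0 as reported, 0 with all rows, 5 with quantile normalization applied again, 12 with median centring, 2 with a gene's rows averaged, 23 with dim genes left out and 16 with a trend and robust prior; with an array left out it ran from 0 to 2. Leaving out dim genes tests fewer genes (13403), and for the other settings the cause was not tested. That filter removed Naprt, so it gave no median of the other 9 members.

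Deviations of arrays with the same replicate number correlated at 0.103, 0.158 and 0.00653, against -0.16 to 0.0416 for other numbers, and 4 of 6 arrays had their best match in their own number. This leans towards a pairing, but not every same-numbered pair was above 0.1 and the labels state no pairing, so the number was not used as one. With a replicate block the count at an adjusted p under 0.05 was 0, the difference of Nmrk2 0.498 and the median of the other 9 members 0.016, and 2902 genes, in place of 2594, had an unadjusted p under 0.05.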
